A study of Mus musculus with 18 samples.

Results

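The genes described here code for components, regulators and receptors of the complement system, namely C1qa, C1qb, C1qc, C4b, C3, Cfb, C3ar1, C5ar1 and Serping1. The members are the 9 genes of that list by gene symbol, out of 36172 genes in the deposited table, a list drawn up with earlier results of these data known. All 9 passed the filter on low values, as did 14804 genes in total. RNA was taken from half-brains of Cx3cr1-Cre/Ert2+; NuTRAP+ mice, about 3 months old and of both sexes, in which tamoxifen switches on a GFP-tagged ribosomal protein in cells that use the Cx3cr1 promoter. A part of each brain lysate was kept as Input, and tagged ribosomes with their RNA were pulled down with anti-GFP to give the Positive fraction (translating ribosome affinity purification, TRAP). The mice had received tamoxifen on 5 days and, 3 to 4 weeks later, 1 intraperitoneal dose of 5 mg/kg lipopolysaccharide (LPS) or of the vehicle, phosphate-buffered saline (PBS), 24 h before the brain was taken. The groups were Input PBS (n = 4 animals), Input LPS (n = 4), Positive PBS (n = 4) and Positive LPS (n = 5). The males were animals 272 and 273 in PBS and animal 267 in LPS, so sex was not balanced between treatments. Female animals alone leave animals 268 and 506 in PBS.

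All animals, the PBS controls included, carried 1 copy of the Cx3cr1-Cre/Ert2 allele and of the NuTRAP construct and had received tamoxifen. The Cx3cr1 promoter is also used by macrophages at the borders of the brain, so the tag marks these with microglia. The study's methods name both cervical dislocation and perfusion with saline as ways the mice were killed, without saying which was used for which animal. The Input library of LPS animal 271 held 1250 counts and was left out, while the other 17 libraries held from 22968939 to 35123345 counts. The ribosomal precursor Rn45s took 1.30% of the Positive library of animal 271 and 0.121% to 0.313% of the others, and without that library the same number of members was called raised in Positive. Microglia markers (10 genes) were each higher in Positive than in Input, with a median log2 difference of 4.25 in mice given PBS and 4.03 after LPS. The border macrophage markers were higher too (6 of 6), as were 6 of 7 endothelial markers. The 8 astrocyte markers summed to between 107500 and 116500 normalised counts in Input PBS and between 108200 and 159200 in Positive PBS. So RNA of other brain cells remained in the Positive fraction. Of these 8 markers, 1 was called higher in Positive and 3 lower in PBS animals, and 1 and 5 in LPS animals. LPS moved markers as well. In the Positive fraction 7 of 10 microglia markers and 4 of 6 border macrophage markers fell, and all 5 tested neutrophil markers rose in both fractions. In such bulk samples fewer cells of a type and less RNA per cell cannot be told apart.

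Complement is a cascade of proteins that tags microbes, debris and synapses for removal and draws in immune cells. C1q, a protein whose chains are coded by C1qa, C1qb and C1qc, recognises targets and starts the classical pathway, which cleaves C4 and then C3. Factor B (Cfb) joins cleaved C3 in the enzyme of the alternative pathway, which amplifies C3 cleavage. The small fragments C3a and C5a act on cells through the receptors C3aR (C3ar1) and C5aR1 (C5ar1). Serping1 codes for C1 inhibitor, which blocks the proteases that C1q activates. In the healthy brain microglia are known as the main source of C1q, and astrocytes are known to make C3 and C4 in inflammation.

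The 3 C1q genes lie side by side on the minus strand of chromosome 4 (mm10), within 18700 bases, with C1qb at chr4:136880145-136886177, C1qc at chr4:136889802-136892914 and C1qa at chr4:136895916-136898844. C4b (chr17:34728381-34743897), Cfb (chr17:34856374-34862514) and C3 (chr17:57203973-57228136) are on chromosome 17, and C3ar1 (chr6:122847140-122856157), C5ar1 (chr7:16246743-16259540) and Serping1 (chr2:84765360-84775429) stand alone. In GENCODE M21 the predicted gene Gm20547 overlaps Cfb on the same strand, and the microRNA genes Mir6972 and Mir6978 lie within Cfb and C3, so reads of Cfb could include those of its partner. C4b has a near-identical copy, C4a, which was listed at 5.24 to 45.7 normalised counts in the 17 libraries. How reads that match both were split is not given in the sources used here, so the values of C4b are uncertain to that extent.

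RefSeq promoters (GRCm38.p6, from 250 bases before to 50 after the start site) were matched for 5 of the 9 members, C1qb, C1qc, C3, C3ar1 and C5ar1. Shown are those of the C1q neighbours C1qb (chr4:136886151-136886450) and C1qc (chr4:136892865-136893164), of C3 (chr17:57228087-57228386), the member with the largest LPS effect, and of the receptor gene C5ar1 (chr7:16259289-16259588), all on the minus strand and written 5′ to 3′. Both strands were searched for 4 motifs, and capitals mark the matches. The motifs were GAGGAA, the core bound by PU.1 (the macrophage lineage factor), GAAANNGAA, the core of interferon-stimulated response elements, TTNNGCAAT, a C/EBP site, and the kB site of NF-kB.

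C1qb: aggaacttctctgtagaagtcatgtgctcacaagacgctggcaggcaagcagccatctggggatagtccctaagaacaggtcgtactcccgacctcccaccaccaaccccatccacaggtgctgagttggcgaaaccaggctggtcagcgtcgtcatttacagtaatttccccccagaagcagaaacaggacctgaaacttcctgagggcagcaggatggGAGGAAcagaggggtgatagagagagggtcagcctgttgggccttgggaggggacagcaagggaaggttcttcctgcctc
C1qc: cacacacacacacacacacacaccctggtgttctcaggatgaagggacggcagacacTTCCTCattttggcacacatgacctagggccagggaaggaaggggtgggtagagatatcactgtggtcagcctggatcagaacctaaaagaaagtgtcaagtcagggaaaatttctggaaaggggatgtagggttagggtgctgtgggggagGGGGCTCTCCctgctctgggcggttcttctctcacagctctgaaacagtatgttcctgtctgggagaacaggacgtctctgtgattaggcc
C3: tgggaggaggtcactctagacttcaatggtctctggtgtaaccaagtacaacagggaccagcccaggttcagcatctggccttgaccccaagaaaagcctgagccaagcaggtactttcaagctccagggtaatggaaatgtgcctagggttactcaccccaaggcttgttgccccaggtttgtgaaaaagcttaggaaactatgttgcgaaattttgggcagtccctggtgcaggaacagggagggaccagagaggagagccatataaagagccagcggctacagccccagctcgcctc
C5ar1: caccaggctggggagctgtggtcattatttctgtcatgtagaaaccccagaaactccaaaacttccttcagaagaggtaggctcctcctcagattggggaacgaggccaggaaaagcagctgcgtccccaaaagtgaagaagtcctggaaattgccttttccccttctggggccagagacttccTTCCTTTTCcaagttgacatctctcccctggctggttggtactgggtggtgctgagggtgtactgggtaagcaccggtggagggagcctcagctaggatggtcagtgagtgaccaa

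The C1qb promoter held 1 PU.1 core, from 30 to 25 bases before the start site. The C1qc promoter held 1 PU.1 core on the other strand, from 193 to 188 bases before the start, and 1 kB site from 41 to 32 bases before it. The C5ar1 promoter held 1 interferon element core, on the other strand, from 66 to 58 bases before the start. The promoters of C3 and C3ar1 held none of the 4 motifs in these letters. Over all 32851 promoters of that length in the table, the PU.1 core was found in 28.3%, the interferon element core in 8.56%, the kB site in 4.51% and the C/EBP site in 2.18%. No match overlapped another. The start site used here for C1qb, position 136886200, differs from the gene end in the deposited table, 136886177, and that of C5ar1 differs too (16259338 against 16259540).

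The first question was how LPS changed the members in each fraction. A gene was called where the Benjamini-Hochberg adjusted p of edgeR's quasi-likelihood test, over all 14804 genes, was under 0.05 and the levels differed by over 25%. In the Positive fraction 8 of 9 members rose and none fell, where 19.0% of all tested genes were called raised and 14.9% lowered. In Input 8 of 9 rose and none fell, where 7.16% of genes were called raised and 5.26% lowered. The median log2 fold change of the members was 1.59 in Positive and 1.69 in Input, against 0.011 and 0.0036 over all tested genes. C1qc was the member without a call in either fraction. The LPS effects are shown in the plot of fold changes with their confidence intervals.

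**Figure D1:**
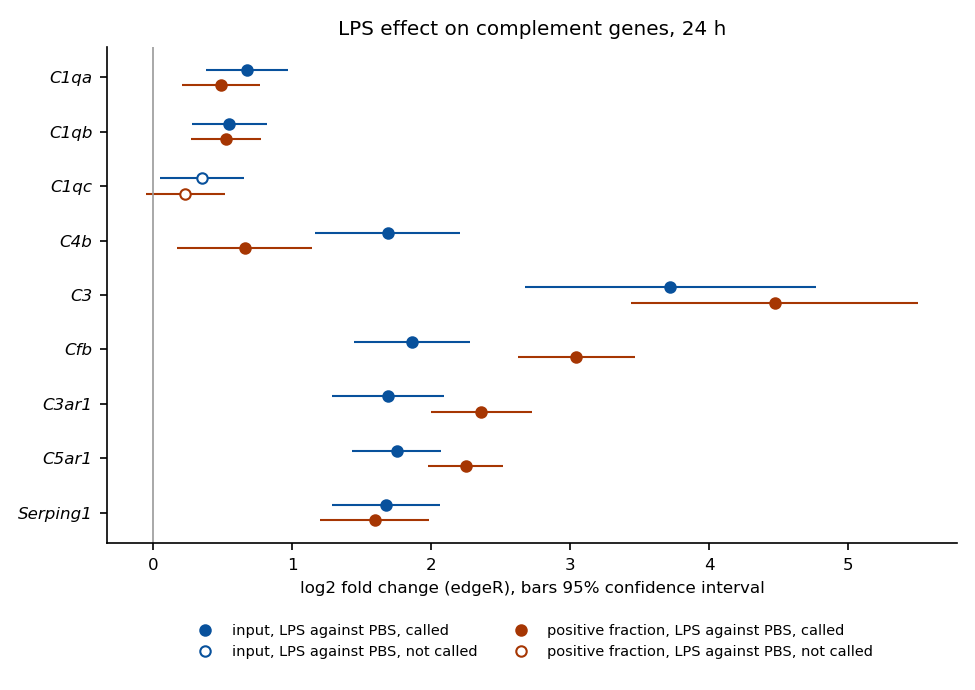
LPS effect on the 9 complement genes, as log2 fold change of LPS against PBS libraries in Input (blue) and in the Positive fraction (brown), with 95% confidence intervals from the edgeR fit. Filled points passed the call threshold. C3 had the largest log2 fold change in both fractions (4.47 in Positive and 3.72 in Input) and C1qc, with open points, the smallest (0.23 and 0.35).

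Of the C1q chains, C1qb was listed at 38200, 36145, 40841 and 39751 normalised counts (counts divided by the size factor of the library) in Positive PBS animals 268, 272, 273 and 506. In Positive LPS it was at 43142, 60104, 58830, 60851 and 55704 in animals 266, 267, 270, 271 and 507. All 5 LPS libraries lay above all 4 PBS libraries, and animal 266 was the lowest of the LPS animals. The log2 fold change of C1qb was 0.52 (SE 0.12, adjusted p = 0.00199), that is 1.44-fold. In Input, C1qb rose from 1724, 2401, 2045 and 1775 in the same PBS animals to 2542, 3574, 2558 and 2958 in LPS animals 266, 267, 270 and 507, again without overlap (log2 0.55, SE 0.13, adjusted p = 0.00652).

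C1qa ranged from 31479 to 39751 in Positive PBS and from 39844 to 56709 in Positive LPS, so the groups were apart by a narrow gap. Its Positive fold change was 1.40 (log2 0.49, SE 0.13, adjusted p = 0.00649), and 1.60 in Input (log2 0.68, SE 0.14, adjusted p = 0.00269). With female animals alone the Positive value of C1qa was 0.36 and no longer called (adjusted p = 0.11). C1qc overlapped between PBS and LPS in both fractions, with 26305 to 31245 against 26218 to 38102 in Positive and 1102 to 1707 against 1478 to 2141 in Input. Its log2 difference was 0.23 in Positive (95% confidence interval -0.05 to 0.52, adjusted p = 0.178) and 0.35 in Input (0.05 to 0.66, adjusted p = 0.114). The 3 genes together took 0.343% ± 0.0204 of all counts in Positive PBS (SD, n = 4) and 0.454% ± 0.0513 in Positive LPS (n = 5), against 0.0185% ± 0.00272 in Input PBS (n = 4) and 0.0276% ± 0.00551 in Input LPS (n = 4).

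Because the chains assemble into 1 protein, their ratios were compared within each library, where scaling has no part. The log2 ratio of C1qc to C1qb in Positive was -0.41, -0.46, -0.54 and -0.35 in PBS animals 268, 272, 273 and 506. In LPS animals 266, 267, 270, 271 and 507 it was -0.72, -0.70, -0.78, -0.92 and -0.55. The means were -0.44 ± 0.08 (SD, n = 4) and -0.73 ± 0.13 (n = 5), and the highest LPS library (-0.548) lay only just below the lowest PBS library (-0.544). The difference was -0.29 (exact two-sided permutation p = 0.0159, the smallest that 4 against 5 libraries allow). After adjustment over the 4 ratio tests p was 0.0635. With so few libraries, even full separation in 1 ratio alone could not pass, so the adjusted p cannot decide on the C1qc share. In Input the difference was -0.20, with LPS libraries from -0.79 to -0.56 and PBS libraries from -0.65 to -0.44 (exact permutation p = 0.0571, adjusted 0.114, where 0.0286 is the smallest possible). The ratio of C1qa to C1qb differed by -0.03 in Positive (exact permutation p = 0.714) and by 0.11 in Input (exact permutation p = 0.143), each with overlapping groups. The plot of chain ratios by library shows each of these values.

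**Figure D2:**
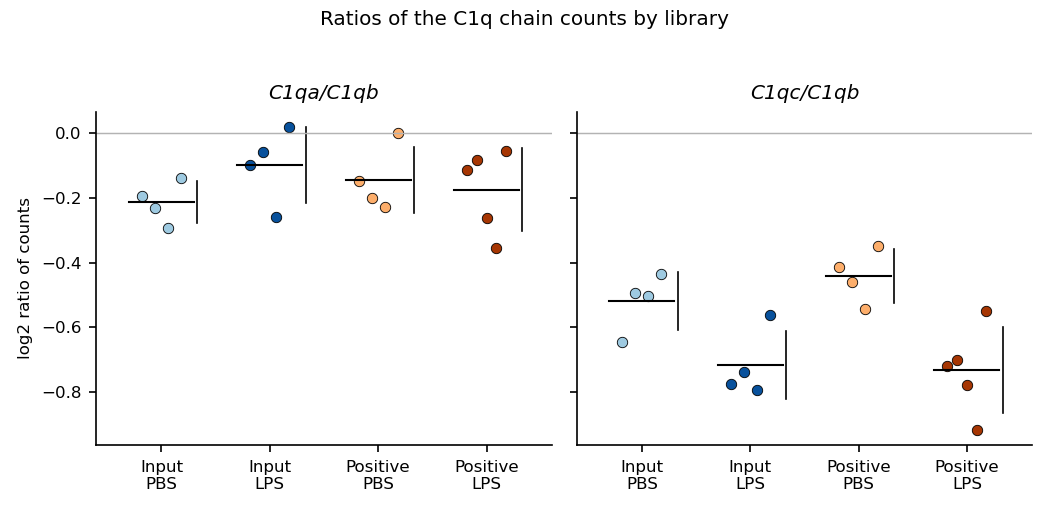
Log2 ratio of the counts of C1qa to C1qb (left) and of C1qc to C1qb (right) in each of the 17 libraries, by group. Horizontal lines are group means and vertical lines 1 SD. In Positive the C1qc to C1qb ratio averaged -0.44 in PBS and -0.73 in LPS animals, while the C1qa to C1qb ratio averaged -0.14 and -0.17.

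C3, the protein on which the pathways meet, was near the lower end of the tested range in PBS animals and rose most. In Positive PBS it was at 79.7, 74.4, 60.2 and 65.1 normalised counts in animals 268, 272, 273 and 506, and in Input PBS at 42.0, 64.1, 37.1 and 43.9. In Positive LPS it reached 2485, 2035, 405, 1082 and 1783 in animals 266, 267, 270, 271 and 507, and in Input LPS 821, 691, 191 and 759.8 in animals 266, 267, 270 and 507. All LPS libraries lay above all PBS libraries of their fraction, and animal 270 was the lowest of the LPS animals in both. The rise was 22.2-fold in Positive (log2 4.47, SE 0.49, adjusted p = 1.35e-06) and 13.2-fold in Input (log2 3.72, SE 0.50, adjusted p = 4.91e-05). Without the Positive library of animal 270 the Positive value was 4.72, and without its Input library the Input value was 4.02.

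Cfb, the protease component of the alternative pathway, stood near 100 normalised counts in both fractions of PBS animals. Its values were 103, 102, 83.8 and 95.8 in Positive PBS (animals 268, 272, 273 and 506) and 78.6, 104, 109.5 and 99.3 in Input PBS. In Positive LPS they were 912, 867, 515, 868 and 815 (animals 266, 267, 270, 271 and 507), and in Input LPS 460.1, 391, 244 and 333 (animals 266, 267, 270 and 507). Again no LPS library overlapped a PBS library, and animal 270 was lowest in both fractions. Cfb rose 8.25-fold in Positive (log2 3.04, SE 0.20, adjusted p = 2.63e-09) and 3.64-fold in Input (log2 1.86, SE 0.20, adjusted p = 3.61e-06).

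C4b, which codes for the C4 protein cleaved after C1q binds, rose in Input and, less firmly, in Positive. Input PBS held 1166, 1054, 1045 and 1149 in animals 268, 272, 273 and 506, and Input LPS 3766, 4047, 2317 and 4094 in animals 266, 267, 270 and 507, with no overlap. The Input fold change was 3.22 (log2 1.69, SE 0.25, adjusted p = 0.00012). Positive PBS held 2134, 1185, 1312 and 1735, and Positive LPS 3869, 2427, 1711, 1622 and 2935 in animals 266, 267, 270, 271 and 507. Here the groups overlapped, since animals 270 and 271 lay below PBS animal 268. The Positive fold change was 1.58 (log2 0.66, SE 0.23, adjusted p = 0.0307), and 8 of 29 alternative fits did not call it. The call was lost without Positive LPS animal 266 (0.46, adjusted p = 0.0914) or 507 (0.60, adjusted p = 0.0619), and without Positive PBS animal 272 (0.54, adjusted p = 0.105) or 273 (0.58, adjusted p = 0.0915).

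Both receptor genes rose in both fractions. C3ar1 was at 1228, 1225, 1030.5 and 1326 normalised counts in Positive PBS (animals 268, 272, 273 and 506) and at 7001, 5914, 4271, 7172 and 6545 in Positive LPS (animals 266, 267, 270, 271 and 507). C5ar1 was at 757, 568, 579 and 787 in Positive PBS and at 3038, 3176, 3376, 2788 and 3615 in Positive LPS, with the same order of animals. For both receptors each LPS library was over 3 times the highest PBS library. Of the Positive LPS libraries, that of animal 270 was the lowest for C3ar1 and not for C5ar1. The Positive fold change was 5.14 for C3ar1 (log2 2.36, SE 0.17, adjusted p = 1.04e-08) and 4.76 for C5ar1 (log2 2.25, SE 0.13, adjusted p = 5.37e-10).

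In Input, C3ar1 rose from 119.7, 118, 106 and 135 in PBS animals 268, 272, 273 and 506 to 515, 348, 257 and 423 in LPS animals 266, 267, 270 and 507. C5ar1 rose from 64.9, 74.5, 54.3 and 53.5 to 237, 199, 171 and 225. Animal 270 was the lowest LPS animal for both receptors here. Neither overlapped between groups, and the folds were 3.23 for C3ar1 (log2 1.69, SE 0.19, adjusted p = 7.45e-06) and 3.37 for C5ar1 (log2 1.75, SE 0.15, adjusted p = 3.34e-07). Both receptors are also known from neutrophils, whose 5 tested markers rose with them after LPS. In PBS animals 3 of these 5 markers were lower in Positive than in Input, and in LPS animals 2 of 5. None was higher in either. Over all tested genes 18.8% and 25.8% were called lower there. The median log2 LPS effect of the 5 markers was 2.45 in Positive and 2.005 in Input. The LPS effect was called larger in Positive than in Input for 1 of them and smaller for none. Of the 3 tested monocyte markers, 2 fell in Positive after LPS and none rose. The 8 neutrophil markers summed to 28.6 to 148.5 normalised counts in Positive PBS and 322 to 970.5 in Positive LPS, and to 158 to 472 in Input PBS and 483 to 1376 in Input LPS, while Ly6g was at 0 in every library. Their part in the rise of the receptor genes was not tested.

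Serping1, the inhibitor of the C1 proteases, rose in both fractions. In Positive it went from 144, 115, 136 and 142 in PBS animals 268, 272, 273 and 506 to 555, 403, 302, 381 and 383 in LPS animals 266, 267, 270, 271 and 507. In Input it went from 324, 206, 308 and 259 to 1111, 817, 670.1 and 909.7 in LPS animals 266, 267, 270 and 507. No LPS library overlapped a PBS library of its fraction, and the folds were 3.02 in Positive (log2 1.59, SE 0.19, adjusted p = 2.8e-06) and 3.20 in Input (log2 1.68, SE 0.19, adjusted p = 5.61e-06).

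**Figure D3:**
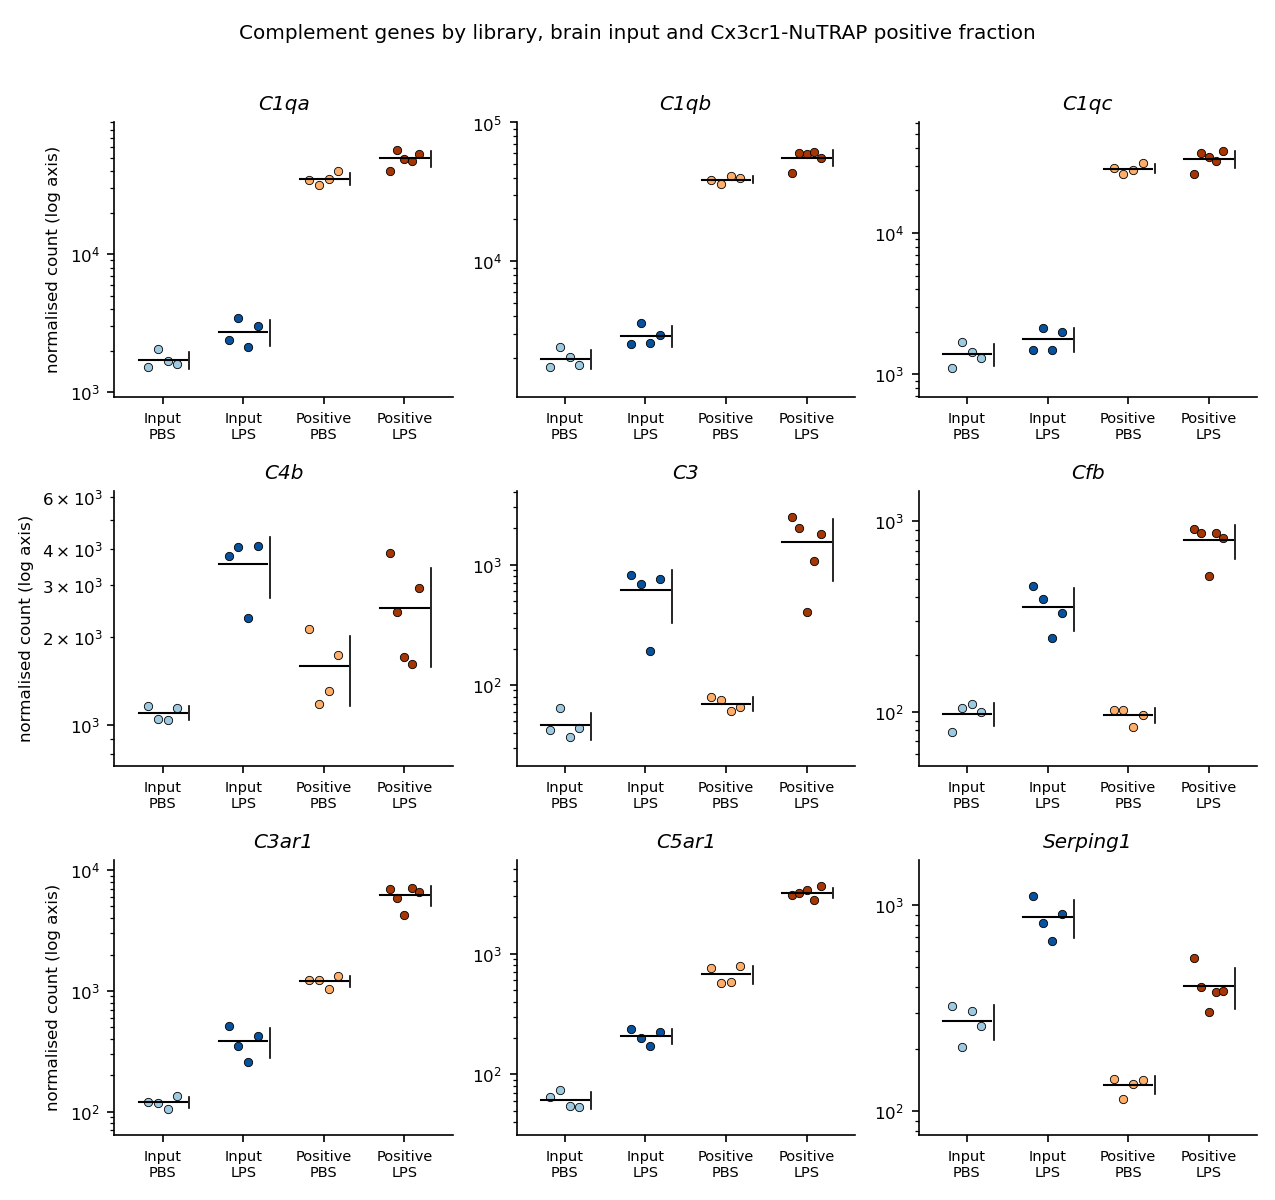
Normalised counts of the 9 complement genes in each of the 17 libraries, on a log axis, by group. Horizontal lines are group means and vertical lines 1 SD (n = 4, and n = 5 in Positive LPS). The C1q genes and both receptors lie far higher in Positive than in Input, while Serping1 lies lower, and the lowest LPS point of C3 and of Cfb in each fraction is animal 270.

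The second question was which members the tagged ribosomes held more of than whole brain. In PBS animals 5 members were higher in Positive than in Input and 1 was lower, where 21.0% of all tested genes were called higher and 18.8% lower. In LPS animals 7 were higher and 1 lower, against 27.6% and 25.8% of all genes. The split of calls over all genes depended on the scaling, with 52.8% of calls higher in PBS animals here and 37.1% with the deposited log2 values (51.7% and 41.2% in LPS animals). The 5 members higher in PBS animals were the C1q genes and both receptors. The C1q genes were higher 20.6-fold (C1qa), 19.5-fold (C1qb) and 20.5-fold (C1qc) in PBS animals, with adjusted p from 9.53e-14 to 3.07e-13, and by log2 differences of 4.17 to 4.26 in LPS animals. C3ar1 was 10.1-fold and C5ar1 10.9-fold higher in PBS animals (adjusted p = 1.21e-10 and 2.56e-12), and 16.0-fold and 15.4-fold higher in LPS animals.

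C3, Cfb and C4b were not called between fractions in PBS animals. The log2 difference of Positive against Input there was 0.59 for C3 (95% confidence interval -0.52 to 1.69), -0.02 for Cfb (-0.46 to 0.41) and 0.53 for C4b (0.01 to 1.04, adjusted p = 0.0854). In a fit with the animal as a replicate block, since each animal gave both libraries, C3 (0.58, adjusted p = 0.006) and C4b (0.49, adjusted p = 0.00303) were called higher. C4b was also called without the Positive library of LPS animal 266, which is in neither of the compared groups (0.53, adjusted p = 0.0478). Fitted on the compared libraries alone, C3 (0.58, adjusted p = 0.0455) and C4b (0.53, adjusted p = 0.0154) were both called higher. In LPS animals C3 was 2.53-fold higher in Positive (log2 1.34, SE 0.41, adjusted p = 0.00848) and Cfb 2.23-fold (log2 1.16, SE 0.18, adjusted p = 2.27e-05). With female animals alone C3 kept the value 1.29 and lost the call (adjusted p = 0.0757). C4b was on the other side, at -0.50 (adjusted p = 0.0643), and was called lower in the blocked fit (-0.40, adjusted p = 0.00744). In these animals C4b was also called lower without the Input library of animal 270 (-0.66, adjusted p = 0.0179) or the Positive library of animal 266 (-0.71, adjusted p = 0.00688).

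Serping1 was lower in Positive than in Input, 2.05-fold in PBS animals (log2 -1.03, SE 0.19, adjusted p = 0.000274) and 2.17-fold in LPS animals (log2 -1.12, SE 0.17, adjusted p = 2.08e-05). Within single animals the log2 ratio of Positive to Input for Serping1 lay between -1.18 and -0.85 in the 4 PBS animals and between -1.25 and -1.001 in the 4 LPS animals with both libraries. Markers of pericytes and fibroblasts (7 genes) were lower in Positive too, 4 of 7 in PBS and 6 of 7 in LPS animals, and all 5 choroid plexus markers were lower in both. All 7 oligodendrocyte markers and all 4 tested erythrocyte markers were lower in both as well, so these lists do not single out a cell type. The part of any of these cells in the level of Serping1 was not tested.

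Per kilobase of exon (GENCODE M21), the C1q genes stood far above the rest. In Positive PBS the mean normalised count per kilobase was 35601 ± 1873 for C1qb, 33796 ± 3291 for C1qa and 23735 ± 1704 for C1qc (SD, n = 4). Next came C4b at 296 ± 80.1, C3ar1 at 279 ± 28.8 and C5ar1 at 262 ± 44.9, which do not differ beyond their spread, then Serping1 at 66.7 ± 6.72, Cfb at 34.9 ± 3.18 and C3 at 13.6 ± 1.72. C1qb and C1qa were also within their spread of each other. In Positive LPS (n = 5) C3ar1 was at 1436 ± 273 and C5ar1 at 1245 ± 123 per kilobase, followed by C4b at 467 ± 173, C3 at 303 ± 160, Cfb at 289 ± 58.3 and Serping1 at 201 ± 46.0. So C3, the lowest member in Positive PBS, was within the spread of C4b and Cfb after LPS.

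The third question was whether the LPS effect differed between the fractions. By the interaction term of the fit Cfb was the 1 member called, rising 2.27-fold more in Positive than in Input (log2 1.18, SE 0.27, adjusted p = 0.0114), where 5.46% of genes were called with a larger LPS effect in Positive and 1.42% with a smaller one. The call was lost with female animals alone (1.01, adjusted p = 0.39) and without animals 506 and 507 (1.13, adjusted p = 0.134). Other members missed the threshold, with C4b at -1.03 (95% confidence interval -1.73 to -0.33, adjusted p = 0.0745), C3ar1 at 0.67 (0.14 to 1.20, adjusted p = 0.129), C5ar1 at 0.50 (0.09 to 0.91, adjusted p = 0.149) and C3 at 0.75 (-0.64 to 2.14, adjusted p = 0.6). C4b was called smaller without the Input library of animal 270 (-1.19, adjusted p = 0.0306) or the Positive library of animal 266 (-1.23, adjusted p = 0.0157). C3ar1 was called larger without the Input library of animal 266 (0.84, adjusted p = 0.0474) or the Positive library of animal 270 (0.78, adjusted p = 0.0334). The intervals of the C1q genes and Serping1 all held 0, with the difference for C1qb at -0.03 (-0.39 to 0.34) and for Serping1 at -0.08 (-0.63 to 0.46).

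Each animal but 271 gave both libraries, so the blocked fit compares fractions within animals, and it called 4 members and 1915 genes where the unblocked fit called 1018. In it the rise was larger in Positive for Cfb (log2 1.15, adjusted p = 0.000587), C3ar1 (0.63, adjusted p = 0.00111) and C3 (0.80, adjusted p = 0.0131), and smaller for C4b (-0.90, adjusted p = 0.00315). The log2 ratio of Positive to Input in single animals shows the same spread. For Cfb it was 0.39, -0.03, -0.39 and -0.05 in PBS animals 268, 272, 273 and 506, and 0.99, 1.15, 1.08 and 1.29 in LPS animals 266, 267, 270 and 507. For C4b it was 0.87, 0.17, 0.33 and 0.59 in the PBS animals and 0.04, -0.74, -0.44 and -0.48 in the LPS animals. For C3ar1 it was 3.29 to 3.38 in PBS and 3.76 to 4.09 in LPS animals, without overlap, while C5ar1 overlapped (2.93 to 3.88 and 3.68 to 4.30). For C3 the PBS animals lay between 0.21 and 0.92 and the LPS animals between 1.09 and 1.60, so animal 270, low in both of its C3 libraries, was near the others in this ratio.

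**Figure D4:**
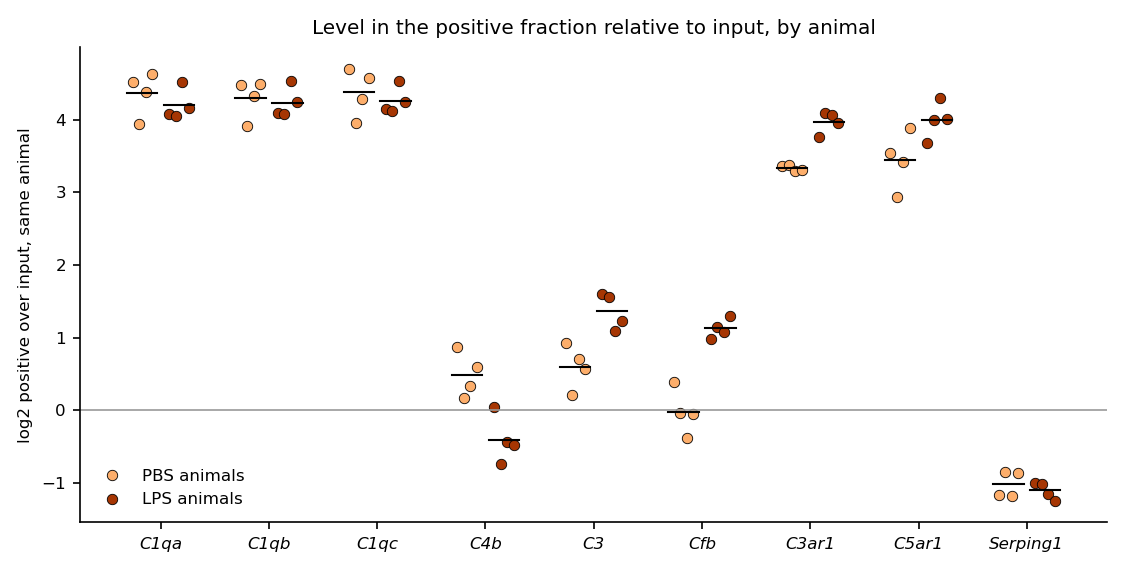
Log2 ratio of the normalised count in Positive to that in Input of the same animal, for the 9 complement genes, in 4 PBS and 4 LPS animals (points), with group means (lines). Cfb, C3 and C3ar1 lie higher in the LPS animals without overlap and C4b lies lower, while the C1q genes and Serping1 overlap.

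Among all 14804 tested genes, those most like each member over the 17 libraries were found by Pearson's r of log2(normalised count + 1). These values describe libraries that share fraction and treatment, and carry no test. For C1qa they were C1qb (r = 0.999), Tgfb1 and Plcg2 (both 0.998), and for C1qc Tyrobp, Cyth4 and C1qa (0.997 to 0.998). For C1qb they were C1qa, Cyth4 and Plcg2 (0.998 to 0.999). For C3ar1 they were Pik3ap1, Lcp2 and Clec4a2 (0.994 to 0.995), and for C5ar1 Cd14, C3ar1 and Il4ra (0.993 to 0.994). C3 was nearest to Cp, Ptges and Cfb (0.972 to 0.986), and Cfb to Ikbke, Saa3 and Ccl5 (0.981 to 0.987). Serping1 was nearest to Dcn, Plce1 and Lbp (0.977 to 0.987). C4b had the lowest values, with Sgk3 at 0.920 and Cyp1b1 and Kcnj2 at 0.888 to 0.889.

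The rest of the complement system was described from a list of 59 other symbols, of which 54 were in the table and 25 were tested. LPS raised 9 and lowered 5 of the 25 in Positive and raised 7 and lowered 3 in Input, with median log2 fold changes of 0.11 and -0.03. Over all tested genes 19.0% were raised and 14.9% lowered in Positive, and 7.16% and 5.26% in Input, so the share lowered in Positive was near that of all genes. None of the 7 genes of the terminal pathway, whose products build the membrane attack complex, was tested, since none passed the filter (the highest value was 33.2 normalised counts, of C7). The plot of other complement genes shows the 13 that were called in at least 1 fraction and averaged 100 or more normalised counts.

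Next to C1q in the cascade are the proteases C1r and C1s. C1ra, which codes for C1r, went from 64.6 ± 12.2 normalised counts in Input PBS to 412 ± 119 in Input LPS (SD, n = 4 each), and from 78.7 ± 24.5 in Positive PBS (n = 4) to 307 ± 85.7 in Positive LPS (n = 5). It rose in both fractions, by 2.67 in Input (SE 0.28, adjusted p = 3.02e-06) and 1.95 in Positive (SE 0.27, adjusted p = 1.48e-05) on the log2 scale. Masp1, a protease of the lectin pathway, fell by 0.39 in Positive (adjusted p = 0.0157, 0.0585 without Positive PBS animal 268 and 0.0979 without animals 506 and 507) and was at -0.11 in Input (adjusted p = 0.599). Cfp codes for properdin, which stabilises the alternative pathway enzyme. It rose by 0.85 in Positive (SE 0.23, adjusted p = 0.00648) and was at -0.28 in Input (adjusted p = 0.474), and the difference of 1.13 was called (adjusted p = 0.0437). The rise in Positive was not called with female animals alone (0.56, adjusted p = 0.241) or without animals 506 and 507 (0.75, adjusted p = 0.0595). The call of the difference was lost in 18 of 28 alternatives, among them each of the 8 Input libraries left out in turn (adjusted p = 0.0528 to 0.0949), and the groups of Cfp overlapped in both fractions.

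Among the fluid phase regulators, Vtn, which codes for vitronectin, fell in both fractions, by 1.06 in Positive (adjusted p = 0.00019) and 0.70 in Input (adjusted p = 0.0215). The Input call of Vtn was lost without Input LPS animal 266 (adjusted p = 0.0555) or 270 (adjusted p = 0.0698) or Input PBS animal 272 (adjusted p = 0.0588).

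Of the membrane regulators, which protect cells from complement, Cd55 rose by 1.10 (SE 0.29, adjusted p = 0.00595) and Cr1l, which codes for Crry, by 0.63 (SE 0.09, adjusted p = 1.36e-05) in Positive. The groups of Cd55 overlapped (65.1 to 128 normalised counts in Positive PBS and 97.5 to 312 in Positive LPS), and its call was lost without animals 506 and 507 (0.91, adjusted p = 0.0693). Cd59a fell by 0.44 in Positive (adjusted p = 0.0274), with overlapping groups and no call without Positive LPS animal 266 or 271 or Positive PBS animal 272 (adjusted p = 0.066, 0.0677 and 0.0797), nor on the compared libraries alone (adjusted p = 0.055) or without animals 506 and 507 (adjusted p = 0.0921), and Csmd3 by 0.48 (adjusted p = 0.0105). None of these 4 was called in Input, where they lay between -0.27 and 0.13. The subunits of complement receptor 3, Itgam and Itgb2, rose in both fractions, Itgam by 0.85 in Positive and 1.20 in Input (adjusted p = 0.00323 and 0.00104) and Itgb2 by 0.82 and 0.96 (adjusted p = 6.02e-06 and 1.31e-05). With female animals alone neither rise of Itgam was called (0.68, adjusted p = 0.137 in Positive and 1.15, adjusted p = 0.0827 in Input). Cd93 rose by 1.22 in Positive and 1.78 in Input (adjusted p = 0.000251 and 5.17e-05). C1qbp rose by 0.71 in Positive (adjusted p = 1.85e-05) and was at 0.19 in Input, and Calr, whose product binds C1q, fell by 0.54 in Input (adjusted p = 0.0291) and was at 0.11 in Positive. The call of Calr was lost in 10 of 29 alternatives, among them each of the 4 Input LPS libraries left out in turn and Input PBS animals 272 and 506 (adjusted p = 0.0525 to 0.0845). Itgam and Itgb2, like the C1q genes, were far higher in Positive than in Input, at a log2 difference of 4.10 and 4.24 in PBS animals.

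**Figure D5:**
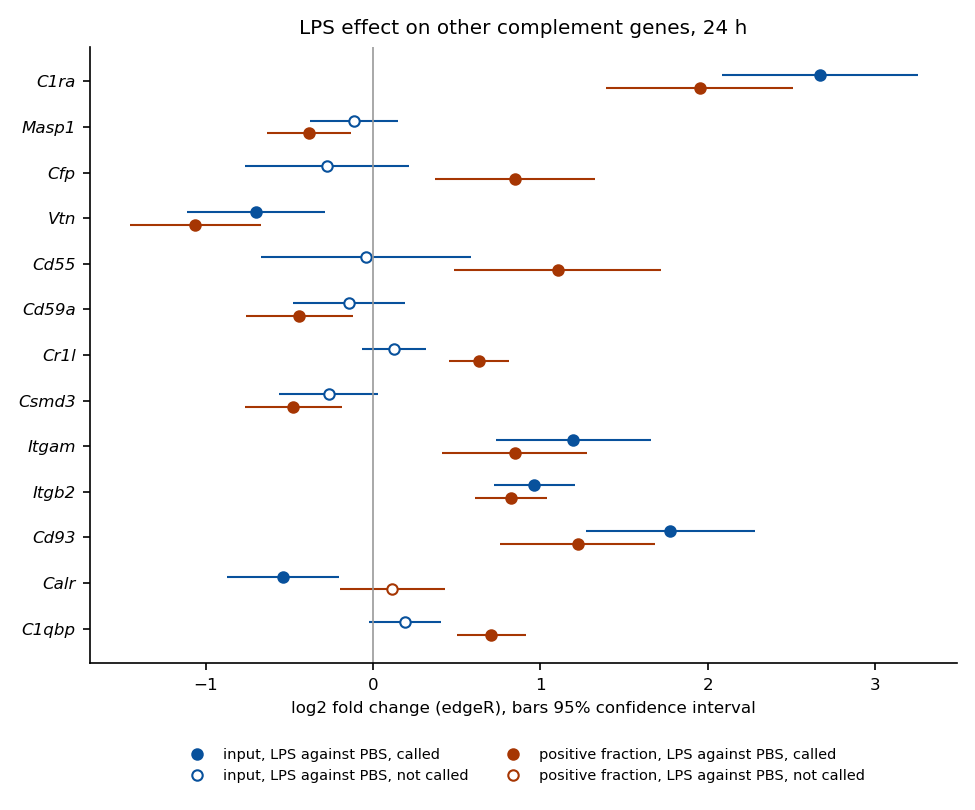
LPS effect on the 13 other complement genes named, as log2 fold change of LPS against PBS libraries in Input (blue) and Positive (brown), with 95% confidence intervals. Filled points passed the call threshold. C1ra has the largest rise (2.67 in Input and 1.95 in Positive), and Vtn has filled points below 0 in both fractions (-0.70 and -1.06).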

How the data were processed

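TRAP-RNAseq was available for Input and Positive fractions of 9 animals, in 18 libraries. The authors used Strand NGS to map trimmed directional reads to mm10, and deposited estimated counts per gene, of which 81.7% of the nonzero values are not whole. They also deposited log2 values, scaled with DESeq per the labels and centred on the Input PBS libraries. Every column was matched to its sample.

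Animal 271's Input library (1250 counts) was left out. At the totals of the other 17 libraries, a gene with 3 counts takes between 8.54e-06% and 1.31e-05% of a library, which covers counting error only. Estimated counts were rounded and scaled by medians of ratios over 15766 genes (size factors 0.764 to 1.32). Of 36172 genes, 21427 had a count, and 14804 were fitted, those above 20 normalised counts throughout 1 group or more, with edgeR 4.0.16 in R 4.3.3 (quasi-likelihood, 1 mean per group, 13 residual degrees of freedom), in place of the study's analysis of variance. The 5 contrasts were both LPS effects, both fraction comparisons and the interaction. Calls needed a Benjamini-Hochberg adjusted p under 0.05 and a fold change over 1.25. Adjusted p-values are edgeR's unless named otherwise. The p-values of this fit rest on the spread between libraries within groups. It treats both libraries of an animal as independent, so its fraction and interaction p-values leave out the pairing.

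C1q chain ratios were tested by exact permutation in SciPy 1.17.1, adjusted over 4 tests. Other complement genes were named where an LPS effect was called and the mean reached 100 normalised counts, and for each member the 3 nearest genes are given. A further listed gene and a promoter motif are not reported here. The members and all lists were chosen with earlier results of these data known.

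Same-numbered libraries come from 1 animal, and their deviations from the group means correlated at 0.16 to 0.519 in all 8 pairs. The fit with the animal as a replicate block used edgeR with animal terms for the fraction comparisons and the interaction, where animal 271 adds no fraction comparison, and limma 3.58.1 with voom and a within-animal correlation of 0.445 for the LPS effects. Counts were simulated for 14804 genes, with the same spread set for every gene and no pairing of animals. In the LPS comparison of the Positive fraction the fit recovered 49 of 50 genes raised 2-fold and 46 of 50 lowered as much. There were 12 false calls. Recovery of genes with a wider spread was not tested. Tried besides were DESeq2 1.42.0, limma-trend, the deposited log2 values, TMM scaling, other filters, all 18 libraries, the compared libraries alone, sex as a covariate, female animals alone, no animals 506 and 507, the block, and leaving out each library.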

Additional observations from a re-analysis of the deposited data

Results flagged for a closer look

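In Positive LPS the Cfb value of animal 270, 515 normalised counts, stood apart from the other 4 libraries (815 to 912). Among 44 such checks over the members and the chain ratios, chance flags about 1 in 20, and this was the only one. Without that library the interaction of Cfb was 1.31 (adjusted p = 0.00134), and over all libraries left out in turn it lay between 1.03 and 1.32. Animal 270 was also the lowest LPS animal for C3, C3ar1 and Serping1 in Positive and, in Input, for every member but C1qb.

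The LPS effect differed between the fractions for 4 of the complement genes named, by the interaction term of the edgeR fit. The difference, Positive minus Input on the log2 scale, was 1.18 for Cfb (adjusted p = 0.0114) and 1.13 for Cfp (adjusted p = 0.0437). For Cr1l it was 0.51 (adjusted p = 0.0174) and for C1qbp 0.52 (adjusted p = 0.0312). Cfhr2, not among the genes named since it averaged 31.3 normalised counts, was called on the other side (-2.39, adjusted p = 0.0114). So of the 25 other complement genes tested, 3 were called with a larger LPS effect in Positive and 1 with a smaller one. Over all tested genes the shares were 5.46% and 1.42%. The call for C1qbp was lost in 10 of 28 alternatives, that for Cfp in 18 and those for Cfb and Cr1l in 2 each. With the animal as a replicate block, the interaction was also called for 4 of the other complement genes named, at 1.29 for Cd55 (adjusted p = 0.00597), 0.71 for Calr (adjusted p = 0.0116), -0.68 for C1ra (adjusted p = 0.0215) and -0.59 for Cd93 (adjusted p = 0.015), and for the members C3, C3ar1 and C4b.

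Of the fits, only the alternative with all 18 libraries used the Input library of LPS animal 271. That library held 6 counts of C1qb and 2 of C1qa among 1252 rounded counts. These are shares of 0.479% (Wilson 95% confidence interval 0.22% to 1.04%) and 0.160% (0.0438% to 0.581%), against at most 0.00863% and 0.00736% in Input PBS libraries and at most 0.197% and 0.185% in Positive LPS libraries. The other 7 members were at 0 there. In the other Input LPS libraries the C1q genes together took at most 0.0342% of the counts.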

How the results depend on the processing

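Of 31 called results of the members over the 5 contrasts, 26 kept their direction and call in every alternative. The exceptions were C1qa and C4b in Positive, C1qb in Input (0.49, adjusted p = 0.089, without animals 506 and 507), C3 between fractions in LPS animals and the interaction of Cfb. With female animals alone, which leaves fewer samples, 740 genes were called for LPS in Input against 1839, and 75 against 1018 for the interaction, with 0 members called higher. Without animals 506 and 507 the counts were 1077 and 323, again with 0 members in the interaction.

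In the replicate block the interaction called 1915 genes, 3 members higher and 1 lower, and 2 members were lower between fractions in LPS animals. The block changed no other count of members past 1.5 times. DESeq2, limma with a trend and the deposited log2 values also called 2 members lower there, and DESeq2 called 1 lower in the interaction. Leaving out 1 library gave 1 to 2 members lower between fractions in LPS animals, and in the interaction 1 to 2 higher and 0 to 1 lower. The cause of these changes was not tested.

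Values near 0 changed sign. For Cfb between fractions in PBS animals the range without 1 library was -0.11 to 0.035, and 0.16 with females. In the interaction it was -0.13 to 0.088 for C1qb and -0.22 to 0.049 for Serping1 (0.045 and 0.0069 without animals 506 and 507), and Vtn was at 0.088 with females. For LPS in Positive, Calr lay at -0.0041 to 0.22 without 1 library (-0.0088 with females), and in Input Cd55 at -0.12 to 0.074 (0.056 with sex as a covariate). The difference of the C1qa to C1qb ratio in Positive ranged from -0.061 to 0.017. Size factors over 575 genes, with all 18 libraries, moved the median of all genes between fractions to -0.12 (PBS) and -0.11 (LPS), and the deposited log2 values to -0.13 and -0.14. The lowest value of a member was 37.1 normalised counts (C3 in Input PBS animal 273), and whether depth limited the members was not tested.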
